A study of Mus musculus with 115 samples.

Results

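Cytosolic ribosomal proteins build the ribosomes that translate nuclear messages in the cytoplasm, and are here the 25 amplicons, of 23930 on a mouse transcriptome panel, whose gene name begins with Rpl or Rps followed by a digit or is Rplp0, Rplp1, Rplp2 or Rpsa. Names containing Rps6k (kinases) or -ps were left out. The panel thus measured only part of the ribosome. It held 7 core genes of the large subunit (Rpl4, Rpl8, Rpl22, Rpl30, Rpl32, Rpl41 and Rplp0), 9 core genes of the small subunit (among them Rps2, Rps3, Rps4x, Rps9, Rps14, Rps15 and Rps21) and 8 genes named as paralogs of a core gene (Rpl3l, Rpl7l1, Rpl10l, Rpl32l, Rpl36al, Rpl39l, Rps4l and Rps27l). The last member, Rps19bp1, binds the ribosomal protein Rps19 and is not itself part of the ribosome.

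Ribosomal proteins are needed in near-equal amounts, and the growth-controlling mTOR pathway adjusts the translation of their messages through a run of pyrimidines at the start of the transcript. Heart muscle is unusual in carrying Rpl3l, a striated muscle paralog that takes the place of Rpl3 in the large subunit. Ribosomal protein messages are present in every cell type of the heart, so in these bulk samples fewer cells of a type and less RNA per cell cannot be told apart.

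RNA came from hearts of C57BL/6JEiJ mice that were wild type, lacked Ant1 (Ant1-/-, the knockout), or lacked Ant1 and carried the mitochondrial ND6 P25L change (the knockout ND6 hearts). The Slc25a4 gene encodes Ant1, a carrier that swaps ATP made in mitochondria for ADP from the cytosol. All mice had received 2.5e+11 vector genomes of an adeno-associated virus into the pericardium, either AAV2/9Des-Gfp-mAnt1 (the Ant1 vector) or AAV2/9Des-Gfp (the control vector). Every heart had thus received a Gfp vector, and no uninjected heart was compared. The labels give collection at 1, 3, 6, 9 and 12 months for the series and no age for a single heart. The title number was read as the heart and repeat libraries were summed, which gave 22 hearts. The control vector groups were 4 wild type hearts (23, 24, 25 and 70), 3 knockout hearts (35, 36 and 38) and 3 knockout ND6 hearts (20, 21 and 22). The Ant1 vector groups were 3 wild type hearts (80, 81 and 83), 4 knockout hearts (20, 21, 22 and 27) and 3 knockout ND6 hearts (5, 8 and 37). Hearts 61 and 91, also knockout ND6, were kept apart because their treatment label names the control vector while their titles carry the code used for hearts given Ant1. Nothing in the labels says whether repeat libraries share 1 RNA extract.

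Heart totals ran from 16827518 to 54779297 counts. Slc25a4 ran from 8464 to 11380 CPM (counts scaled to the library total with edgeR's TMM factors) in wild type hearts with the control vector and from 0.219 to 2.03 CPM in the knockout and knockout ND6 hearts with that vector. The Ant1 vector groups differed: it reached 174.3 to 241.4 CPM in knockout hearts, but heart 8, labelled knockout ND6 with the Ant1 vector, held 0.732 CPM, while hearts 61 and 91 held 169.1 and 151.3 CPM. Among the 6 groups compared no library table held both vectors, so the vector and the library table cannot be told apart in any comparison between vectors. Hearts 61 and 91 share tables with hearts 22 and 70 of the control vector, and if their title code is right those tables held both. The 8 cardiomyocyte markers summed to between 66440 and 82230 CPM over all groups, and none of them was at 0.

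The members fell into a well-measured set and a barely measured set. 18 members had a median of at least 10 CPM over the 22 hearts, and the other 7 (Rpl10l, Rps2, Rpl22, Rpl39l, Rps4x, Rplp0 and Rpl32l) had medians from 0.0911 to 1.95 CPM. Rps2, Rpl22, Rps4x and Rplp0 encode core proteins of which a cell makes as much as of the others, and yet the Rps2 amplicon gave 1 to 15 counts per heart and the Rplp0 amplicon 34 to 119. Amplicon counts depend on how well each amplicon works, so the order of levels between amplicons says nothing of the order of the messages. The highest medians by amplicon were those of Rps9 (1164 CPM), Rps15 (837.1 CPM) and Rps14 (804.8 CPM), and the lowest those of Rpl10l (0.0911 CPM), Rps2 (0.225 CPM) and Rpl22 (0.388 CPM). Rpl10l, a retrogene known for its role in the testis, did not pass the filter on low counts, which left 24 members in the tests.

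Over all hearts Rps15 (760.3 to 899.7 CPM, a 1.18-fold range) and Rps9 (1037 to 1283 CPM, 1.24-fold), both core proteins of the small subunit, were among the most even members. Among members over 10 CPM the widest was Rps21, a small protein on the solvent side of the small subunit, with 324.6 to 818 CPM, a 2.52-fold range. Next was Rps4l, a copy of the small subunit gene Rps4x that the GENCODE annotation lists as a transcribed processed pseudogene, with 27.3 to 56.8 CPM, a 2.08-fold range. Members of the same subunit thus differed in how far they ranged.

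**Figure D1:**
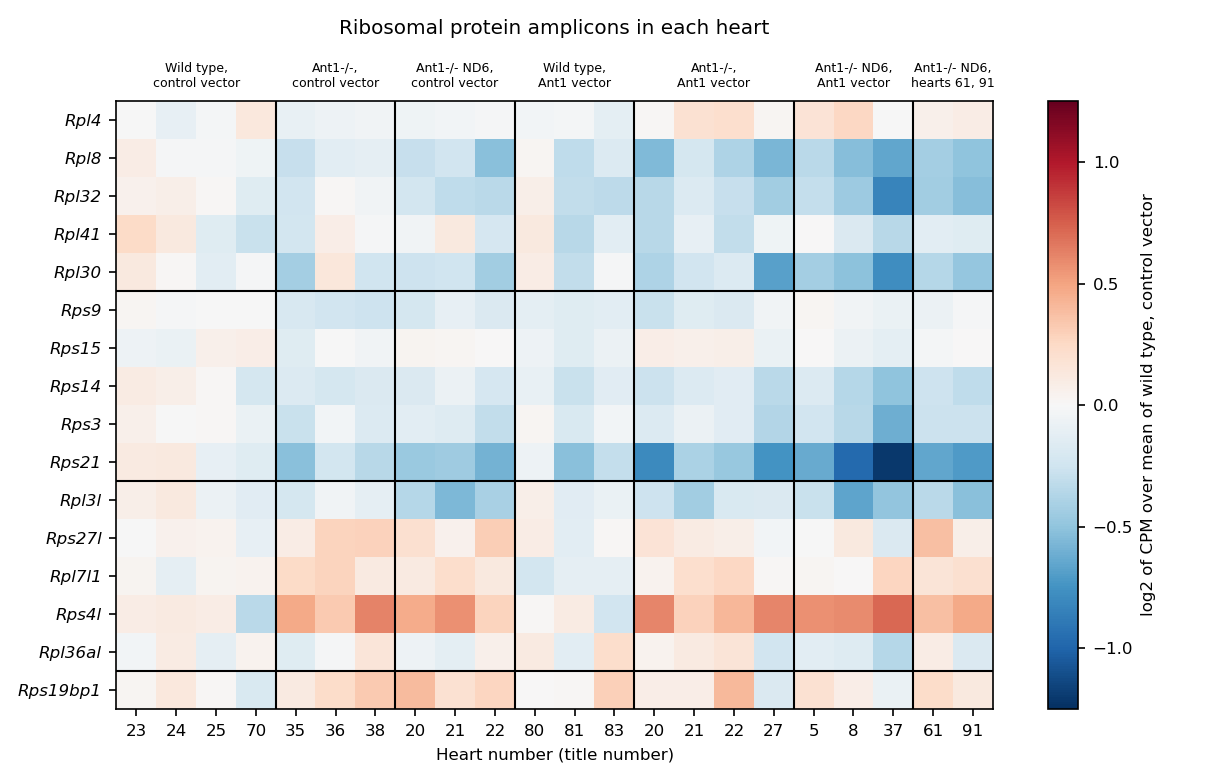
Colour gives the log2 ratio of each member's CPM (rows, 16 members over 10 CPM; core large subunit, core small subunit, paralogs, Rps19bp1) to the mean of the 4 wild type control vector hearts, for each heart (columns). Rps21 is blue and Rps4l red in all knockout and knockout ND6 hearts, while Rps15, with a 1.18-fold range, stays near white. Rps21 is also below the reference mean (750.2 CPM) in the 3 wild type hearts with the Ant1 vector (522 to 718.5 CPM).

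Transcript starts are shown for 4 members that the comparisons with wild type turn on, 3 that were lower and 1 that was higher, because the pyrimidine run near the start is the element through which mTOR acts on such messages. The windows cover 30 bases before and 20 bases from the start annotated by RefSeq (GRCm38.p6), on the gene's strand, with the longest run of C or T in capitals.
Rps21: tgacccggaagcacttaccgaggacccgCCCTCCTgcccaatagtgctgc
Rps3: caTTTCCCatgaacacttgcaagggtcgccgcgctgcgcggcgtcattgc
Rpl3l: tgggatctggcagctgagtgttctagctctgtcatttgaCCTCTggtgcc
Rpl7l1: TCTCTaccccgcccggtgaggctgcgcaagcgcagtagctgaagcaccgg
They lie at chr2:180257349-180257398 (Rps21, plus strand), chr7:99483690-99483739 (Rps3, minus strand), chr17:24727796-24727845 (Rpl3l, plus strand) and chr17:46782637-46782686 (Rpl7l1, minus strand). The run of 7 bases in Rps21 spans the annotated start, and those of Rps3 (6 bases), Rpl3l (5 bases) and Rpl7l1 (5 bases) lie away from it. Rps9, whose window is not shown, has a run of 9 bases that spans its annotated start as well. Promoter entries were found for 18 of the 25 members. A C at the start followed by at least 4 pyrimidines was present in 2 of them, Rps21 and Rpl32l, against 3.01% of all genes with an entry. A run of at least 6 pyrimidines anywhere in the window was present in 10 of them (55.6%), against 48.7% of all genes with an entry. Rps4l, Rpl8 and Rpl30 were among the members without an entry. Annotated starts can differ from the start used in heart muscle, and the absence of a run says only that these letters are not in the window.

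Knockout hearts were first set against wild type hearts, both with the control vector (3 against 4 hearts). Of the 24 members tested, Rps4l rose and Rps9 fell (8.3% of members called), against 14.4% of all 15403 genes at an adjusted p under 0.05. The members thus were not called more often than other genes. Their median log2 change was −0.11, beside −0.03 over all genes, and 17 of 24 were below 0. Groups that did not overlap were common with so few hearts: this held for 26.7% of all genes. Among the 24 members 3 lay apart above wild type and 3 below.

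Rps4l held 36.7, 37.1, 36.6 and 27.3 CPM in the wild type hearts 23, 24, 25 and 70. It held 47.9, 43.2 and 52.8 CPM in the knockout hearts 35, 36 and 38. Every knockout heart lay above every wild type heart, and wild type heart 70 lay below its 3 companions. The rise was 1.39-fold (log2 0.48 ± 0.11 SE, adjusted p = 0.00663). Without knockout heart 38 the adjusted p was 0.0526 (log2 0.40).

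Rps9 encodes a protein that joins the small subunit early and helps set decoding accuracy. Its level was 1283, 1246, 1252 and 1258 CPM in the wild type hearts and 1094, 1070 and 1053 CPM in the knockout hearts. The groups did not overlap, and within each group the hearts differed little. The fall was 1.17-fold (log2 −0.23 ± 0.06 SE, adjusted p = 0.0116), and without knockout heart 38 the adjusted p was 0.055. The knockout ND6 hearts with the control vector, at 1080, 1173 and 1115 CPM for Rps9, also lay below the wild type range, with no call. Rps21, which was 676.9 to 818 CPM in the wild type and 523.7 to 641.1 CPM in the knockout hearts, did not pass (log2 −0.36, adjusted p = 0.0676), although the groups did not overlap. Without wild type heart 70 the number of members called was 5, and without knockout heart 38 it was 0.

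Next, 3 knockout ND6 hearts were set against the same 4 wild type hearts. Rps4l rose and 4 members fell, among them Rpl3l, Rps21 and Rpl8, which makes 5 of 24 members called (20.8%), against 12.7% of all genes. The median log2 change was −0.18, beside −0.01 over all genes, and 18 of 24 members were below 0. In 26.3% of all genes these groups did not overlap, and of the 24 members 4 lay apart above wild type and 7 below. The number called was 3 without knockout ND6 heart 20 or 21 or wild type heart 23, and 2 without knockout ND6 heart 22.

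Rpl3l held 170.9, 177, 153.9 and 146.6 CPM in the wild type hearts and 126.4, 110.2 and 122.4 CPM in the knockout ND6 hearts 20, 21 and 22. All knockout ND6 hearts lay below all wild type hearts. The fall of this muscle paralog was 1.35-fold (log2 −0.44 ± 0.10 SE, adjusted p = 0.00583), and it passed in all 15 alternative analyses. Its partner gene Rpl3 was not measured here, so the balance of the pair was not examined.

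Rps21 held 808.9, 818, 697 and 676.9 CPM in the wild type hearts and 543, 550.3 and 499 CPM in the knockout ND6 hearts. The groups did not overlap. The fall was 1.41-fold (log2 −0.50 ± 0.13 SE, adjusted p = 0.0144), and without knockout ND6 heart 22 the adjusted p was 0.0827. Rpl8, a core protein close to the centre where peptide bonds form, held 565, 524.2, 524.1 and 509.9 CPM in the wild type hearts and 434.6, 450.3 and 369.7 CPM in the knockout ND6 hearts. Again no knockout ND6 heart reached the wild type range. The fall was 1.27-fold (log2 −0.34 ± 0.10 SE, adjusted p = 0.0275). The Rpl8 call was lost without knockout ND6 heart 20 (adjusted p = 0.0563), heart 22 (0.183) or wild type heart 23 (0.0699).

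Rps4l held 47.6, 51.2 and 41.8 CPM in the knockout ND6 hearts, all above the wild type range given above. The rise was 1.36-fold (log2 0.44 ± 0.11 SE, adjusted p = 0.013). Without knockout ND6 heart 21 the adjusted p was 0.081. Both comparisons use the same 4 wild type hearts, so their values are given side by side and their likeness is no separate evidence.

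**Figure D2:**
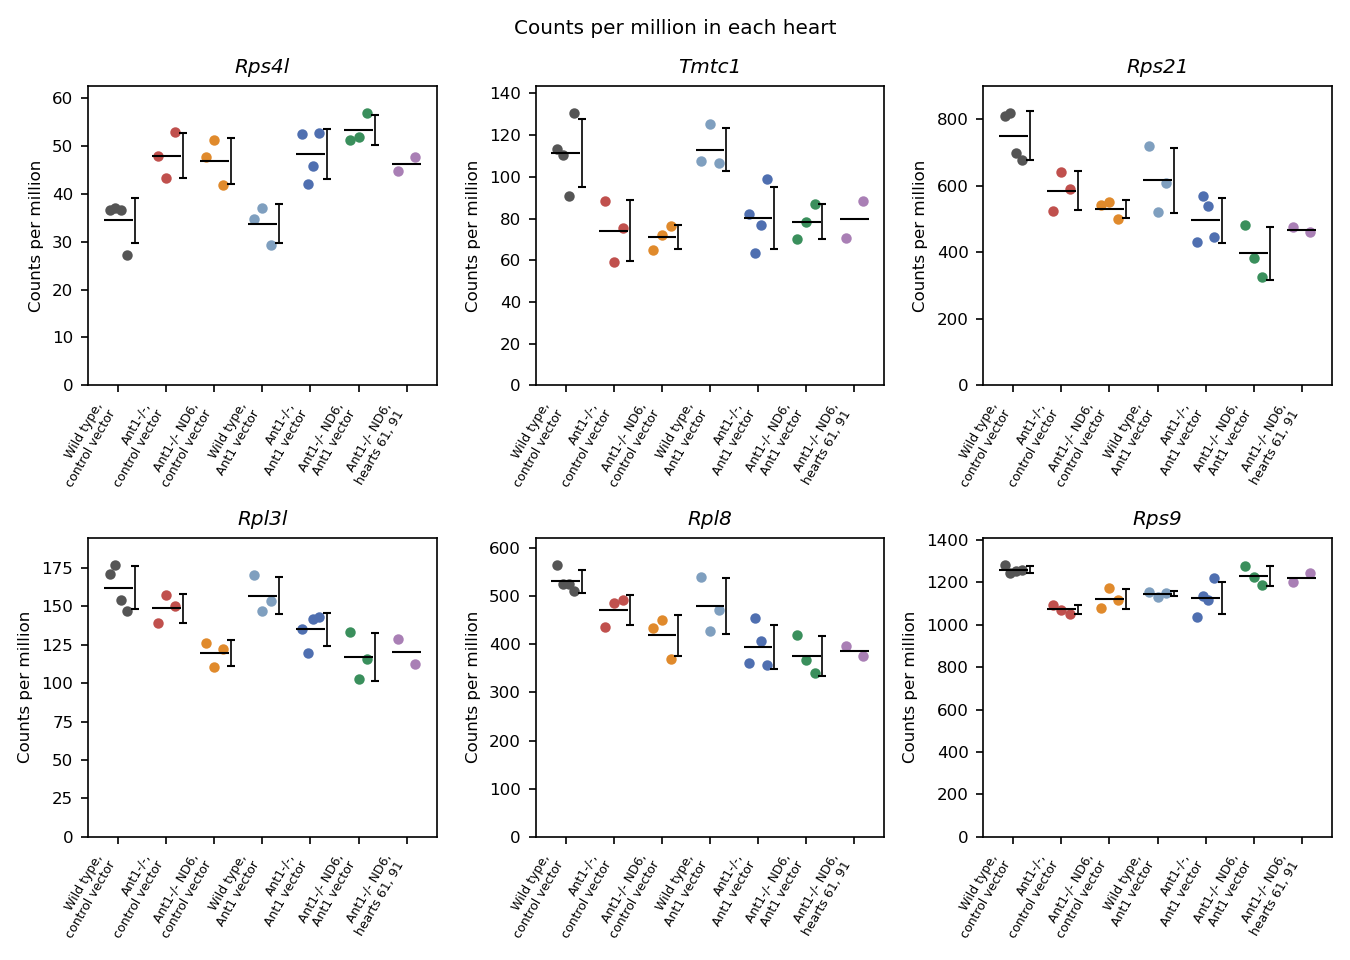
Points give CPM in each heart for 5 members and for Tmtc1, the gene whose span holds Rps4l; horizontal lines are group means and bars 1 SD (not drawn for the 2 hearts 61 and 91). Rps4l is higher and Tmtc1 lower in knockout and knockout ND6 than in wild type hearts under both vectors. Rps21, Rpl3l and Rpl8 have their lowest heart among the knockout ND6 hearts with the Ant1 vector. For Rps9 the wild type hearts with the control vector lie above the knockout and knockout ND6 hearts with that vector. They also lie above the wild type hearts with the Ant1 vector.

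Knockout ND6 and knockout hearts with the control vector were then set against each other. No member passed (edgeR), against 1.06% of all genes, with 1 member at an unadjusted p under 0.05 and 0 called by DESeq2. Rpl3l held 138.8, 157.6 and 150 CPM in the knockout hearts and, as above, 110.2 to 126.4 CPM in the knockout ND6 hearts. The ranges did not overlap, as in 25.3% of all genes, but the difference did not pass (log2 −0.31, adjusted p = 0.152). The fall of Rpl3l in knockout ND6 hearts against wild type was therefore not shown to differ from the change in knockout hearts (log2 −0.12, adjusted p = 0.438).

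Hearts with the Ant1 vector gave a second, separate set of wild type hearts. In knockout hearts Rps4l and Rpl7l1 rose and no member fell, which is 8.3% of members against 9.89% of all genes. In 20% of all genes these groups did not overlap, and of the 24 members 3 lay apart above wild type and 1 below. The number called was 1 without knockout heart 22 or wild type heart 80, and 0 without wild type heart 83. Rps4l held 34.8, 37.1 and 29.2 CPM in the wild type hearts 80, 81 and 83. It held 52.6, 42, 45.8 and 52.6 CPM in the knockout hearts 20, 21, 22 and 27. All knockout hearts again lay above all wild type hearts, and the rise was 1.43-fold (log2 0.52 ± 0.12 SE, adjusted p = 0.0066). Without wild type heart 83 the adjusted p was 0.0603.

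Rpl7l1, a paralog of Rpl7 with a role in assembling the large subunit, held 68.8, 74.8 and 74.8 CPM in the wild type and 83.2, 93.3, 96.8 and 81.5 CPM in the knockout hearts. The groups did not overlap. The rise was 1.22-fold (log2 0.28 ± 0.08 SE, adjusted p = 0.0348) and passed in 7 of 16 alternatives. The call was lost without knockout heart 21 or 22 or without any wild type heart (adjusted p up to 0.142), and with the library table as a covariate the change was 0.16 on the log2 scale (adjusted p = 0.495).

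Knockout ND6 hearts with the Ant1 vector showed the most calls: 2 members rose and 6 fell, 33.3% of members against 19.5% of all genes. Those that rose were Rps4l and Rpl7l1. Those that fell included the small subunit genes Rps21 and Rps3, the large subunit genes Rpl8 and Rpl30, and Rpl3l. The median log2 change was −0.09, beside −0.002 over all genes. In 34.1% of all genes these groups did not overlap, and of the 24 members 4 lay apart above wild type and 7 below. Without hearts 27 and 37, whose libraries sit in tables of their own, 4 members were called. Leaving out single hearts gave 4 without heart 37, 5 without heart 8, 3 without wild type heart 80 and 5 without wild type heart 83.

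Rps21 held 718.5, 522 and 608.7 CPM in the wild type hearts 80, 81 and 83. It held 483.5, 383.2 and 324.6 CPM in the knockout ND6 hearts 5, 8 and 37. No knockout ND6 heart reached the wild type range. The fall was 1.55-fold (log2 −0.63 ± 0.14 SE, adjusted p = 0.00287) and passed in all 16 alternatives.

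Rps4l held 51.2, 51.8 and 56.8 CPM in the knockout ND6 hearts, above all 3 wild type hearts. Its rise, 1.58-fold (log2 0.66 ± 0.12 SE, adjusted p = 0.000824), also passed in all 16 alternatives. Rpl3l held 170.1, 146.9 and 153.5 CPM in the wild type and 133.5, 102.6 and 115.4 CPM in the knockout ND6 hearts. These ranges did not overlap either. The fall was 1.34-fold (log2 −0.42 ± 0.11 SE, adjusted p = 0.0081), and without heart 8, the one with little Slc25a4, the adjusted p was 0.0525 (log2 −0.33).

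Rpl30, a large subunit protein at the interface between subunits, held 25.4, 19.2 and 23.5 CPM in the wild type and 17.8, 16.6 and 13.9 CPM in the knockout ND6 hearts. Rps3, which lines the channel where the message enters, held 818.9, 704.5 and 787.7 CPM against 684.4, 633.5 and 529.9 CPM. In both genes heart 37 was the lowest of its group and the groups did not overlap. Rpl30 fell 1.41-fold (adjusted p = 0.0215) and Rps3 fell 1.25-fold (adjusted p = 0.0216). Without heart 37 neither passed (adjusted p = 0.0981 and 0.114), nor did either pass without wild type heart 80 (0.0972 and 0.0916) or 83 (0.0709 and 0.0698).

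Rpl8 fell 1.27-fold (adjusted p = 0.0255) in the same comparison. It did not pass without heart 8 (0.0734), 37 (0.105), wild type heart 80 (0.143) or wild type heart 83 (0.0555). Rpl7l1 rose 1.20-fold (adjusted p = 0.0473), and without heart 37 the adjusted p was 0.231. It was also lost without any 1 of the 3 wild type hearts (0.0833 to 0.161). No knockout ND6 heart shared a table with a wild type heart of the Ant1 vector, so the library table enters this comparison.

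**Figure D3:**
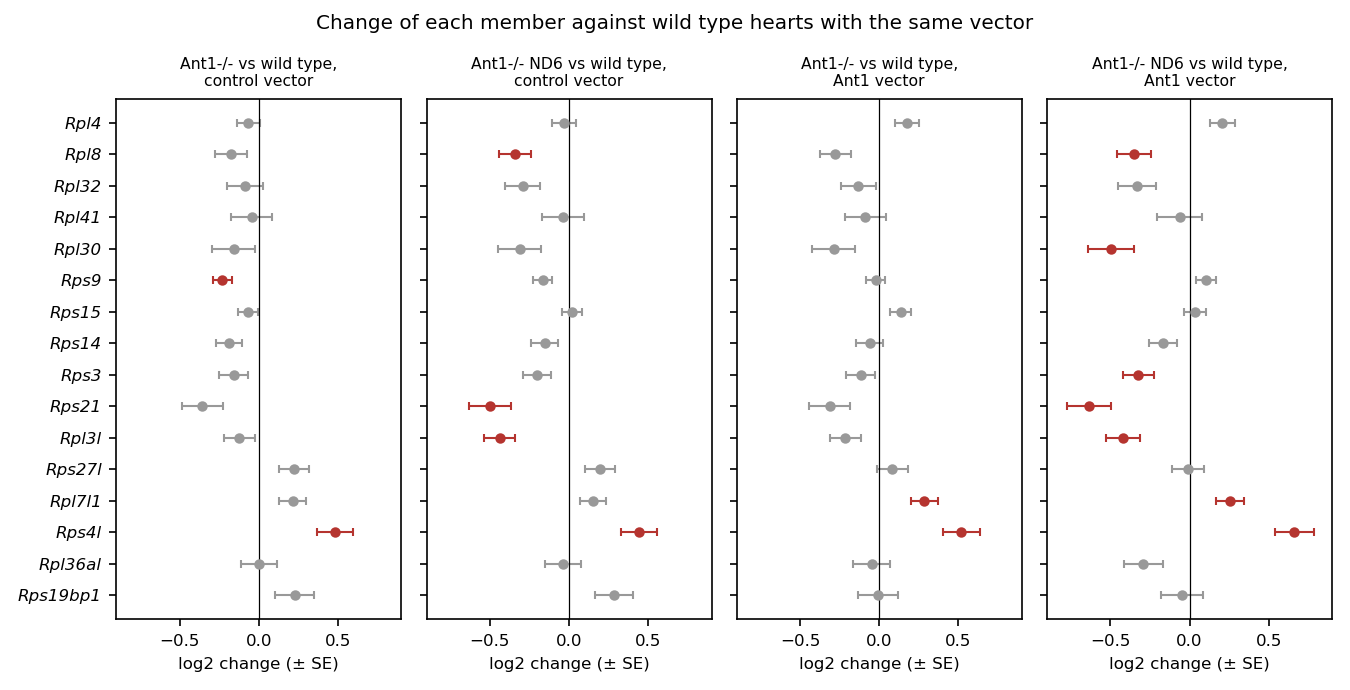
Points give the log2 change of each member (rows, 16 members over 10 CPM) and bars 1 SE, for knockout and knockout ND6 hearts against wild type hearts with the same vector; red marks an adjusted p under 0.05 (edgeR). Rps4l lies between 0.44 and 0.66 in all 4 panels, and Rps21 between −0.63 and −0.31.

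The remaining pairing of genotypes, knockout ND6 against knockout hearts with the Ant1 vector, gave 0 calls among members (edgeR), against 1.66% of all genes, with 5 members at an unadjusted p under 0.05 and 0 called by DESeq2. The ranges of Rps21 overlapped, at 430.7 to 568.8 CPM in the knockout and 324.6 to 483.5 CPM in the knockout ND6 hearts (log2 −0.32, adjusted p = 0.217).

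The Ant1 vector itself was compared with the control vector within each genotype. In knockout hearts no member passed (edgeR), against 5.47% of all genes, with 2 members at an unadjusted p under 0.05 and 0 called by DESeq2. In knockout ND6 hearts no member passed (edgeR), against 2.53% of all genes, with 2 at an unadjusted p under 0.05 and 1 called by DESeq2, and edgeR called 1 without heart 5. In wild type hearts no member passed (edgeR), against 0.117% of all genes, with 2 at an unadjusted p under 0.05 and 0 called by DESeq2. Rps4l did not move back toward wild type: it averaged 48.0 ± 4.79 CPM (SD, n = 3) with the control and 48.3 ± 5.24 CPM (SD, n = 4) with the Ant1 vector in knockout hearts (log2 0.01, adjusted p = 0.975). In knockout ND6 hearts it averaged 46.9 ± 4.76 CPM (SD, n = 3) and 53.3 ± 3.09 CPM (SD, n = 3; log2 0.19, adjusted p = 0.407). Rps21 was 584.9 ± 58.9 CPM (SD, n = 3) and 496 ± 68.1 CPM (SD, n = 4) in knockout hearts (log2 −0.24, adjusted p = 0.288), and it did not pass in knockout ND6 hearts either (log2 −0.42, adjusted p = 0.1).

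Whether the genotype difference itself depended on the vector was tested as an interaction. For knockout against wild type no member passed (edgeR), against 0.5% of all genes, with 3 at an unadjusted p under 0.05 and 0 called by DESeq2. For knockout ND6 against wild type no member passed (edgeR), against 0.273% of all genes, with 2 at an unadjusted p under 0.05 and 0 called by DESeq2. Rps9, called in knockout hearts under the control vector only, had 1155, 1133 and 1149 CPM in wild type and 1037, 1137, 1115 and 1222 CPM in knockout hearts with the Ant1 vector, where the groups overlapped. Its interaction did not pass (adjusted p = 0.253), so the vectors were not shown to differ. In knockout ND6 hearts with the Ant1 vector Rps9 held 1188 to 1278 CPM. These lay above all 3 wild type hearts with that vector, the other direction to the control vector, with no call.

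Rps4l is the member with a call in each of the 4 comparisons of knockout or knockout ND6 hearts against wild type. It is a single-exon copy on chromosome 6 (148354656 to 148355596, mm10), and its best alignment with a transcript of Rps4x was 79.7% identical over 814 bases. Rps4x itself was at 0.34 to 1.64 CPM and was not called in any comparison. Rps4l lies inside the span of Tmtc1, on the opposite strand. Tmtc1 encodes an enzyme of the endoplasmic reticulum that adds mannose to cadherins, and it was looked at after the Rps4l values were known. The labels do not say whether counting used strand, so reads of the pair could not be separated by strand.

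Tmtc1 moved the other way. It held 113.5, 110.6, 90.9 and 130.5 CPM in wild type hearts with the control vector, 88.3, 59.1 and 75.2 CPM in knockout hearts and 64.9, 72.1 and 76.6 CPM in knockout ND6 hearts. Both groups lay below all 4 wild type hearts. Tmtc1 fell by 0.59 on the log2 scale in knockout (adjusted p = 0.011) and by 0.65 in knockout ND6 hearts (adjusted p = 0.00688). Under the Ant1 vector it fell 1.41-fold in knockout (adjusted p = 0.0366) and 1.44-fold in knockout ND6 hearts (adjusted p = 0.0238). The rise of Rps4l thus did not come with a rise of the gene around it.

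Other paralogs were quieter. Rps27l, the p53-inducible copy of Rps27, was 104.3 to 116 CPM in wild type and 119.3 to 136.4 CPM in knockout hearts with the control vector (log2 0.22, adjusted p = 0.125). It was 116.2 to 138.9 CPM in the knockout ND6 hearts (log2 0.19, adjusted p = 0.197), and with the Ant1 vector the groups overlapped. Rpl39l, a paralog of Rpl39 known from the testis, was at 0.155 to 1.39 CPM over all hearts and was not called. Rpl32l is a single-exon copy 96.0% identical to Rpl32 over 404 aligned bases, so its 1.19 to 3.71 CPM may hold reads of Rpl32 and is uncertain. Rpl36al, 87.7% identical to Rpl36a over 332 bases, was at 11.4 to 17.1 CPM with no call.

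Rplp0, the base of the stalk that recruits elongation factors, was at 1.19 to 2.74 CPM with no call (log2 −0.43 in knockout against wild type hearts with the control vector, adjusted p = 0.176). Rpl22, an RNA-binding protein of the large subunit, was at 0.0938 to 0.597 CPM with no call. Among the well-measured core genes Rpl4, which lines the exit tunnel, and Rpl41, the smallest ribosomal protein, were not called in any comparison. Rpl4 was 407.5 to 529.8 CPM and Rpl41 214.4 to 323.6 CPM over all hearts. Rps14, a protein of the platform where messages leave the small subunit, was not called either, at 643.9 to 980.5 CPM.

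The comparisons with wild type were repeated inside single library tables that held both genotypes, where a difference between tables cannot enter. Rps4l was higher in all 3 tables with knockout and wild type control vector hearts (log2 0.27 to 0.48), in both with knockout ND6 hearts (0.47 to 0.65) and in both with knockout and wild type Ant1 vector hearts (0.60 to 0.62). Rps21 was lower in the same 7 tables (−0.59 to −0.58, −0.53 to −0.43 and −0.55 to −0.44). Rpl8 was lower in all 7 as well (−0.37 to −0.29, −0.55 to −0.50 and −0.43 to −0.36). Rpl3l was lower in all 7 by 0.20 to 0.33 on the log2 scale. Each such difference rests on 1 knockout or knockout ND6 heart of the group compared (35, 22 or 20). For heart 22 it also rests on wild type heart 70 alone. These are values of few hearts, scaled to library totals without TMM factors, with no test.

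Summed over the 25 amplicons, the 4 control vector wild type hearts held 8062, 7882, 7679 and 7294 CPM. Knockout hearts held 6670, 7179 and 7037 CPM and knockout ND6 hearts 6913, 7048 and 6590 CPM. Every knockout and knockout ND6 heart lay below every wild type heart under the control vector, at 90.1% and 88.6% of the wild type mean. Wild type hearts given the Ant1 vector held 7582, 6635 and 6979 CPM, the knockout hearts 6584, 7139, 6964 and 6516 CPM and the knockout ND6 hearts 6987, 6476 and 5940 CPM. Here the genotypes overlapped. Hearts 61 and 91 held 6654 and 6594 CPM. The sum is carried by a few amplicons with many counts, and no test was made of it. Without Rps9, Rps15 and Rps14, knockout hearts 36 and 38 with the control vector held 4481 and 4361 CPM. Wild type heart 70 held 4357 CPM, so those groups then overlapped. The knockout ND6 hearts with that vector, at 3841 to 4162 CPM, stayed below it.

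**Figure D4:**
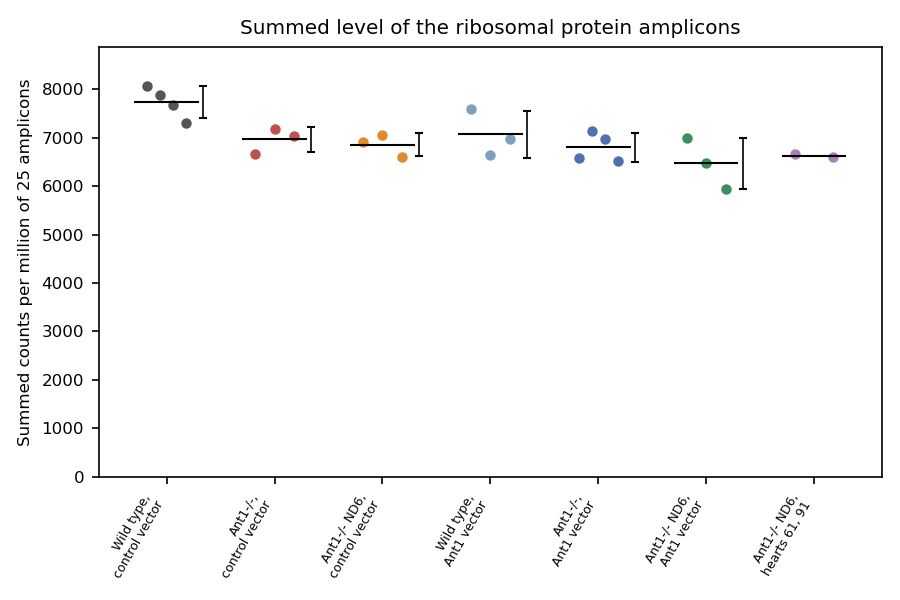
Points give the summed CPM of the 25 amplicons in each heart, lines the group means and bars 1 SD (not drawn for the 2 hearts 61 and 91). The 4 wild type hearts with the control vector, at 7294 to 8062 CPM, lie above the knockout and knockout ND6 hearts that received that vector, and under the Ant1 vector the groups overlap.

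Within groups some members moved together from heart to heart. Deviations of log2 CPM from the group mean were compared between Rps21 and each of the 17 other members over 10 CPM across the 22 hearts, a choice made after seeing the values. Rpl8 followed Rps21 most closely (Pearson r = 0.90, Spearman rho = 0.89, permutation p = 1e-05 for both, the smallest that 100000 resamples can give, adjusted p = 5.7e-05 for both). Leaving out the 2 hearts farthest from the median of Rps21 gave r = 0.88. Rpl32, a core large subunit gene with no call of its own, came next (r = 0.88, rho = 0.85, permutation p = 1e-05 for both, adjusted p = 5.7e-05 for both, and r = 0.82 without the 2 farthest hearts). In all, 9 of 17 relations passed after adjustment, every one of them positive, the weakest with r = 0.51. The resampling treated the 22 deviations as independent, but taking out the group means leaves only 15 independent values. The permutation p-values are therefore too small, and the weaker relations that passed are uncertain. Among all 8075 other tested genes with a median of at least 10 CPM and above 0 in every heart, members included, 16.2% had an r of at least 0.51 with Rps21, and 0.656% reached that of Rpl32.

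The even members Rps9 (r = 0.28, rho = 0.28, permutation p = 0.22 and 0.21, adjusted p = 0.24 for both) and Rps15 (r = 0.34, rho = 0.34, permutation p = 0.12 and 0.13, adjusted p = 0.15 and 0.18) did not pass. For Rps4l the values were r = −0.20 and rho = −0.27 (permutation p = 0.37 and 0.22, adjusted p = 0.4 and 0.24). All these values come from the same libraries and share depth and RNA quality. Single library tables hold too few hearts for a value of their own. Without hearts 27 and 37 the r of Rpl8 was 0.88 and that of Rpl32 0.85.

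Repeat libraries of 1 heart spread widely in a few hearts. The 8 libraries of knockout heart 27 ran from 194.9 to 590.5 CPM for Rps21, from 677.5 to 1971 CPM for Rps9 and from 25.1 to 74.8 CPM for Rps4l. That is a 3.03-fold, 2.91-fold and 2.98-fold spread in a single heart, larger than any difference between groups given above for these members. The next widest heart for Rps21 was knockout heart 36, with 498.1 to 752.4 CPM. Rps4l in knockout ND6 heart 37 ran from 31.2 to 76 CPM.

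**Figure D5:**
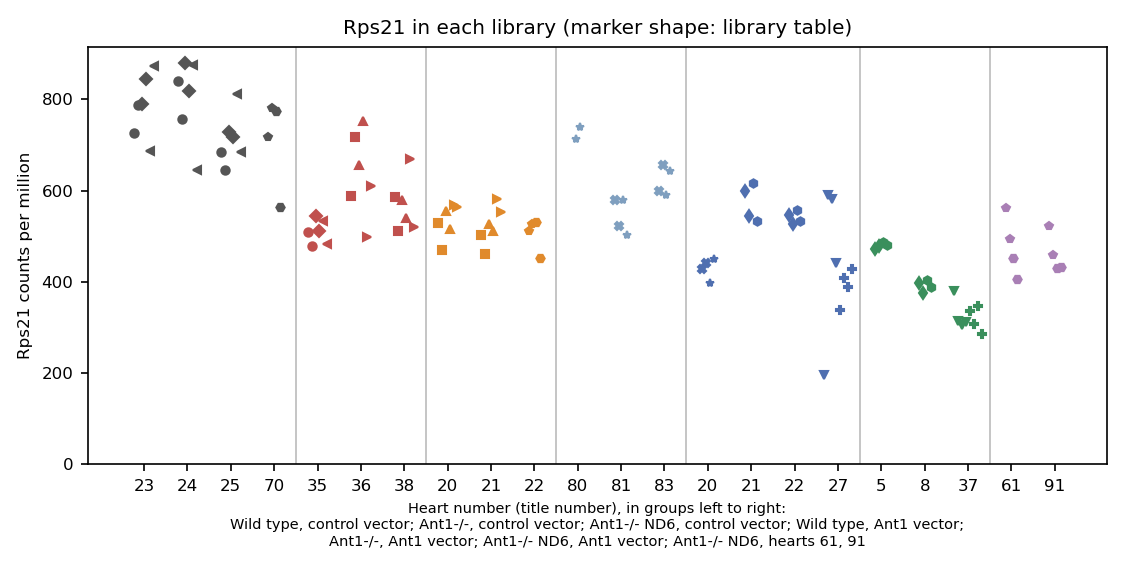
Points give Rps21 CPM in each library, arranged by heart and group, with the marker shape showing the library table. Heart 27 spreads from 194.9 to 590.5 CPM, while the libraries of most other hearts cluster.

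The genes around the ribosome were read from lists of its assembly factors, of translation factors and of mTOR signalling. Of 53 ribosome assembly factors 8 rose and 0 fell in knockout and 5 rose and 0 fell in knockout ND6 hearts against wild type with the control vector, 15.1% and 9.43% of the list beside 14.4% and 12.7% of all genes. With the Ant1 vector 4 rose and 3 fell in knockout and 6 rose and 5 fell in knockout ND6 hearts, 13.2% and 20.8% beside 9.89% and 19.5%. The shares called were thus near those of all genes. Rrp12, a factor for maturation and export of both subunits, was higher in knockout hearts (41.3 ± 2.93 CPM, SD, n = 3) than in wild type hearts (19.8 ± 2.73 CPM, SD, n = 4), a 2.09-fold rise (adjusted p = 1.85e-05). In knockout ND6 hearts it rose 2.01-fold (adjusted p = 3.98e-05), with the Ant1 vector 1.67-fold in knockout (adjusted p = 0.00187) and 1.90-fold in knockout ND6 hearts (adjusted p = 0.000211). Nhp2, of the particles that pseudouridylate ribosomal RNA, rose 1.45-fold (adjusted p = 0.000486) and Bysl, of the small subunit precursor, 1.44-fold (adjusted p = 0.000764) in knockout hearts with the control vector. Imp3, another small subunit assembly factor, fell 1.31-fold (adjusted p = 0.0162) and 1.48-fold (adjusted p = 0.000896) in knockout and knockout ND6 hearts with the Ant1 vector.

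Of 22 genes of mTOR signalling toward ribosomal protein messages, 1 rose in knockout and 3 rose in knockout ND6 hearts with the control vector, and none fell (4.55% and 13.6% of the list, beside 14.4% and 12.7% of all genes). With the Ant1 vector 2 rose and 0 fell in knockout (9.09%), and 7 rose and 4 fell in knockout ND6 hearts (50%, beside 19.5% of all genes). Mtor, the kinase itself, rose in all 4 comparisons, with means of 39.1 ± 4.59 CPM (SD, n = 4) in wild type, 68 ± 6.09 CPM (SD, n = 3) in knockout (1.74-fold, adjusted p = 3.5e-06) and 59.8 ± 2.80 CPM (SD, n = 3) in knockout ND6 hearts (1.53-fold, adjusted p = 0.000118). Larp1, which binds pyrimidine-run messages, rose 1.57-fold in knockout ND6 hearts with the Ant1 vector (adjusted p = 0.00935). Cnbp fell 1.27-fold in the same comparison (adjusted p = 0.0113). Myc, which drives transcription of ribosome genes, rose 1.83-fold in knockout ND6 hearts with the control vector (adjusted p = 0.00609), to 6.03 CPM. Transcript levels of these kinases and regulators are not their activity.

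Of 30 translation initiation factors, 2 and 5 rose and none fell in knockout and knockout ND6 hearts with the control vector (6.67% and 16.7%, beside 14.4% and 12.7% of all genes). With the Ant1 vector 5 rose and 1 fell, and 6 rose and 5 fell (20% and 36.7%, beside 9.89% and 19.5%). Eif2b4, a subunit of the factor that recharges eIF2, rose in all 4 comparisons (log2 0.33 to 0.58, adjusted p from 0.00032 to 0.0181). With the Ant1 vector Eif1ax fell 1.40-fold in knockout (adjusted p = 0.00729) and 1.55-fold in knockout ND6 hearts (adjusted p = 0.000825). Of 12 elongation and termination factors 2 rose in knockout hearts with the control vector (Etf1 1.33-fold and Eef1e1 1.38-fold), 16.7% beside 14.4% of all genes. In knockout ND6 hearts with the Ant1 vector Eef2 rose 1.45-fold and Eef1b2 fell 1.42-fold. Of 15 genes of RNA polymerase I and its factors, 1 rose in each genotype with the control vector, Rrn3 in knockout (1.29-fold) and Polr1e in knockout ND6 hearts (1.42-fold), and with the Ant1 vector 0 were called in knockout hearts and 1 rose (Taf1b) and 1 fell (Twistnb) in knockout ND6 hearts. These shares, 0 to 13.3%, lay below those of all genes in each comparison. Of 13 p53 targets, Ccng1 rose 1.31-fold and Bbc3 fell 1.86-fold in knockout hearts with the control vector, and Btg2 rose 4.29-fold in knockout ND6 hearts with the Ant1 vector, where its hearts spread widely (166.3 ± 104.6 CPM, SD, n = 3). That is 15.4% of the list beside 14.4% of all genes, and 7.69% beside 19.5%.

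Markers of some other cells also differed between the groups. The 8 fibroblast markers summed to 2962 to 3144 CPM in wild type hearts with the control vector. With that vector the sums were 2008 to 2411 CPM in knockout and 2294 to 2472 CPM in knockout ND6 hearts. Of the 8, 5 and 4 fell (62.5% and 50%, beside 14.4% and 12.7% of all genes). The sums under the Ant1 vector were 2660 to 2801 CPM in wild type, 2341 to 2692 CPM in knockout and 2204 to 2632 CPM in knockout ND6 hearts. There 1 of 8 fell in knockout hearts, and 2 rose and 2 fell in knockout ND6 hearts. These are 12.5% and 50%, beside 9.89% and 19.5% of all genes. The 7 macrophage markers were 157.1 to 217.1 CPM in wild type and 110.7 to 136.7 CPM in knockout ND6 hearts with the control vector. There 2 of 6 tested fell (33.3%, beside 12.7% of all genes), and 0 were called in knockout hearts with that vector. Of 6 endothelial markers 1 rose in knockout (16.7%, beside 14.4%) and 0 were called in knockout ND6 hearts with the control vector. Of 5 smooth muscle and pericyte markers 0 were called in either. With the Ant1 vector 0 endothelial markers were called in knockout hearts and 3 of 6 rose in knockout ND6 hearts (50%, beside 19.5%). Of 8 cardiomyocyte markers 0 were called in knockout or knockout ND6 hearts with the control vector. With the Ant1 vector Ryr2 fell in knockout hearts (12.5%, beside 9.89%). In knockout ND6 hearts with that vector Myh6 rose and Ryr2 and Tnni3 fell (37.5%, beside 19.5%). Of 6 adipocyte markers Ucp1 alone was called with the control vector (16.7% in each genotype). It fell 31.9-fold in knockout and 10.9-fold in knockout ND6 hearts, from a widely spread wild type level (22.4 ± 13.6 CPM, SD, n = 4). With the Ant1 vector 0 were called in knockout and 2 fell in knockout ND6 hearts (33.3%, beside 19.5%). The 5 liver markers on the panel reached 194 CPM in 1 wild type heart with the control vector. The lowest heart of that group held 0.743 CPM and the median was 14.3 CPM. Wild type hearts with the Ant1 vector held 0.381 to 0.647 CPM. The knockout and knockout ND6 groups held 0.377 to 2.65 CPM, so low sums were not particular to them. No fibroblast marker was at 0 in any heart. In knockout hearts with the control vector 3 of the 5 liver markers and 1 macrophage marker were at 0 in at least 1 heart. In wild type hearts 1 liver marker with the control vector and 2 with the Ant1 vector were at 0 in at least 1 heart. The part of these cells in the changes of ribosomal protein messages was not tested.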

How the data were processed

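The authors deposited raw counts per amplicon from Ion Torrent sequencing of 112 heart libraries in 14 tables of 8 libraries, with mm10 as the build per the submitters' processing notes; in the sources used here the aligner, counter and strand setting are not given. The single-nucleus data (3 samples) were not used, and 2 libraries with no group (80a and 80b) entered only an alternative that adds them to heart 80. Library totals ran from 2893780 to 8531273 counts. Libraries were summed by title number, genotype and title code into 22 hearts. Nothing in the labels says how hearts were sampled, so p-values measure the spread between these samples.

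Genes kept by filterByExpr (15403) were fitted over 7 groups with edgeR 4.0.16 (quasi-likelihood test, TMM scaling, R 4.3.3). They were adjusted by Benjamini-Hochberg with a threshold of 0.05, and every adjusted p of a group comparison is from that test. Each SE was derived from the log2 change and the F statistic of that test. Alternatives were RLE and total-count scaling, DESeq2 1.42.0, no filter, only the compared groups, a limma 3.58.1 voom fit of single libraries with their table as covariate, adding libraries 80a and 80b, other uses of hearts 27, 37, 61 and 91, and leaving out each heart. On simulated knockout against wild type data (15085 genes, control vector) edgeR recovered 64.2% of 1.5-fold and 94% of 2-fold changes with 9 false calls. The voom fit made 427 on 15116 genes and was too liberal there. The simulated libraries of a heart differed only by counting noise and had no table effect, unlike the real ones. How liberal the voom fit is on the real libraries was therefore not measured.

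Named genes were up to 8 members a direction per pairwise comparison with the smallest adjusted p, the paralogs and stalk genes Rpl3l, Rplp0, Rpl22, Rps27l and Rpl39l, the 3 highest and 3 lowest members, and up to 4 genes per other list. Members and lists were chosen with earlier results of these data known. Transcript starts are from RefSeq and paralog alignments from GENCODE transcripts. The planned ratio of Rpl3l to Rpl3 was not analysed here, since the table used holds no Rpl3 amplicon. The results of some members are counted in the totals and not reported here.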

Additional observations from a re-analysis of the deposited data

Results flagged for a closer look

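In groups of 4 hearts, 5 of 46 gene and group pairs held a heart far from the other 3, where chance gives about 1 in 20. In wild type hearts with the control vector, heart 70 was lowest for Rps4l (27.32 CPM) and highest for Rpl32l (3.713 CPM), and heart 24 was lowest for Rpl7l1 (74.65 CPM). In knockout hearts with the Ant1 vector, heart 27 was lowest for Rps15 (796.6 CPM) and highest for Rpl32l (3.711 CPM).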

How the results depend on the processing

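Of 263 alternative values for 17 called gene results none reversed, and 59 missed the threshold, 37 of them on leaving out a heart. For knockout against wild type hearts with the control vector (2 members called) the count was 5 with total-count scaling, 4 with DESeq2 and 9 with the library table as covariate, and 0 to 5 leaving out a heart. For knockout ND6 against wild type (5) it was 8 with the table and 8 with hearts 61 and 91 as control vector, and 2 to 5 leaving out a heart. Knockout ND6 against knockout (0) gave 1 with the table and 1 with only the compared groups. With the Ant1 vector, knockout against wild type (2) gave 1 without the filter, 4 with the table, 1 with only the compared groups and 0 to 2 leaving out a heart. Knockout ND6 against wild type (8) gave 4 with only the compared groups, 4 without hearts 27 and 37, and 3 to 9 leaving out a heart. Knockout ND6 against knockout (0) gave 6 with the table. Between vectors, knockout ND6 hearts (0) gave 1 with DESeq2 and 0 to 1 leaving out a heart, and the knockout interaction (0) gave 1 with the table. The cause of these shifts was not tested.

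The summed level of control vector knockout hearts (90.1% of wild type) was 82.56%, 81.67% and 84.24% within the 3 library tables that hold both groups, and 88.4% to 92.0% leaving out a heart. For knockout ND6 hearts (88.6%) it was 88.4% and 84.3% within the 2 tables that hold both groups. For Ant1 vector knockout against wild type (96.3%) it was 93.5% and 90.59% within such tables. These within-table values repeat a single knockout or knockout ND6 heart in each comparison (35, 22 and 20 in turn). Heart 35 was the lowest of its group, at 86.29% of the wild type mean. Heart 22 was set against wild type heart 70 alone. No paired analysis was possible because heart numbers shared by groups belong to different hearts. Members under 2 CPM had too few counts to show small differences.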
